A study of Mus musculus with 16 samples.

Results

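RNA-Seq of memory CD4+ T cells from the mouse spleen was examined for 7 genes of the T follicular helper (Tfh) program, Bcl6, Ascl2, Tox2, Cxcr5, Icos, Sh2d1a and Slamf6. They were chosen by their symbol, and each matched 1 of the 56748 genes of the tables. The 16 samples fell into 4 groups of 4: HP1α KO, the WT littermates of the HP1α line, HP1γ KO and the WT littermates of the HP1γ line. HP1α and HP1γ, encoded by Cbx5 and Cbx3, are heterochromatin proteins that bind methylated histone H3. HP1α KO mice were homozygous for an Hp1a allele from which CMV-cre had excised the floxed sequence in all tissues (Hp1a-/-), and their WT littermates were Hp1a+/+. In the HP1γ line, KO and WT mice were all homozygous for the floxed Hp1g allele, and the KO mice also carried Cd4-cre, which acts in T cells. The presence of Cre and the loss of HP1γ therefore cannot be told apart in that line. KO and WT mice of a line were sex-matched littermates, 6 to 12 weeks old, of mixed background (129/Sv x C57BL/6), and the cells were sorted as CD4+CD25low/-CD62L-CD44high. No transfer or other treatment of the mice was part of the memory cell experiment as the study's methods describe it.

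Tfh cells are the CD4+ T cells that enter B cell follicles and help B cells form germinal centres. Bcl6 is the transcriptional repressor that defines the lineage, and Ascl2 and Tox2 are transcription factors that act in the same program, with Ascl2 known to induce Cxcr5. Cxcr5 is the receptor for the follicular chemokine CXCL13, and Icos is a costimulatory receptor needed to form and keep Tfh cells. Slamf6 is a SLAM family receptor on T and B cells, and Sh2d1a encodes SAP, the adaptor that binds the tails of SLAM receptors and is needed for lasting contact between T and B cells.

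The total of estimated counts per sample lay between 26694045 and 40199637. The sorted cells carried the CD4 T cell markers at a summed level of 5012 to 5690 CPM (counts scaled to the library total by the TMM method), all 8 of them detected. The 15 B cell markers summed to 325 to 801 CPM, most of it from Ighm, while Pax5 lay between 1.12 and 5.21 CPM. Cxcr5, Bcl6, Icos and Slamf6 are not restricted to Tfh cells, and Foxp3, the regulatory T cell factor, was at 57.6 to 164 CPM in these samples. Of the targeted genes, Cbx3 was at 47.5 ± 1.97 CPM in HP1γ KO and 84.5 ± 8.66 CPM in the WT littermates (SD, n = 4), a fall by 0.82 on the log2 scale (edgeR, adjusted p = 0.0015). Cbx5 was at 27.1 ± 2.77 CPM in HP1α KO and 40.3 ± 9.28 CPM in WT without overlap between the groups, and its log2 fold change of -0.58 did not pass the test (adjusted p = 0.946). A count over the whole gene includes any exon outside the floxed part. For naive CD4+ T cells, the study reported with western blots that HP1α was absent in its KO and HP1γ almost completely lost in its KO.

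All positions of the genes below are those of the GENCODE annotation of GRCm39. Promoters were taken from a RefSeq table on another build, GRCm38.p6, which held 4 of the 7 genes (Bcl6, Ascl2, Tox2 and Slamf6) and not Cxcr5, Icos and Sh2d1a. The 250 bases before the most upstream listed start are printed 5′ to 3′ on the strand of the gene. They are shown because the table held them, and not for the levels of these genes. Capitals mark each E box, CANNTG, the core bound by basic helix-loop-helix factors such as Ascl2.
Bcl6, chr16:23988853-23989102, minus strand: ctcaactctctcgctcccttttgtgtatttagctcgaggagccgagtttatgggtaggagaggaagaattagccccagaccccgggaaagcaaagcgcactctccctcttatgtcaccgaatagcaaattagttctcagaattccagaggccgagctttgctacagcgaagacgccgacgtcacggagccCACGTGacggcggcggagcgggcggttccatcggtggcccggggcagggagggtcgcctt
Ascl2, chr7:142969265-142969514, minus strand: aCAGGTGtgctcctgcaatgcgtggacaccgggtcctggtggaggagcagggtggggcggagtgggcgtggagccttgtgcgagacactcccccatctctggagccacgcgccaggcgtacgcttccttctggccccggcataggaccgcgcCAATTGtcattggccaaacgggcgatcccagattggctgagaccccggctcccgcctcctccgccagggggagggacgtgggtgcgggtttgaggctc
Tox2, chr2:163202877-163203126, plus strand: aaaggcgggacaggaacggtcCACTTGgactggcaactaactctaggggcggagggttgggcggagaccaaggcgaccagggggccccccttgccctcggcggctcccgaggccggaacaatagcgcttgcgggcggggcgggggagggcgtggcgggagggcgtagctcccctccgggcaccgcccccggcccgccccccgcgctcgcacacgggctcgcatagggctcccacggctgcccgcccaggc
Slamf6, chr1:171917212-171917461, plus strand: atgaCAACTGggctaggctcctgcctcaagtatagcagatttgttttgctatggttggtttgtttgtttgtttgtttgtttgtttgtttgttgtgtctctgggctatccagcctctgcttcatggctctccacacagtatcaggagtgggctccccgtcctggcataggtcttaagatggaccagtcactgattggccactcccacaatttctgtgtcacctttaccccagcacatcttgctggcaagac
The Ascl2 window held 2 E boxes and each of the other windows held 1, and 66.2% of all 32851 promoter windows of the table held at least 1. In the Bcl6 window the E box lay 60 bases before the start, and the E boxes of the Tox2 and Slamf6 windows lay 229 and 246 bases before it. CAGCTG, a subset of the E boxes found in 13.0% of windows, was in none of the 4. TTCNNNGAA, the STAT motif, was found once in the Bcl6 window and not in the others (7.02% of windows). The BCL6 motif TTCCTAGAA, which is a form of the STAT motif, was in none (0.347% of windows). Both strands were searched, and these matches are letters in a window, not measured binding sites.

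Bcl6 (ENSMUSG00000022508, chr16:23783802-23807602, minus strand, 10 exons) had its 4 highest samples in the HP1γ line. It was at 30.7, 33.7, 38.5 and 38.7 CPM in HP1α KO and at 32.2, 53.5, 46.4 and 31.7 CPM in HP1α WT, in the order of replicates 1 to 4. In the HP1γ line it was at 73.1, 88.5, 53.0 and 50.8 CPM in KO and at 86.5, 58.6, 46.9 and 61.1 CPM in WT. KO and WT overlapped in either line, whereas every HP1γ KO sample was above every HP1α KO sample. Ascl2 (ENSMUSG00000009248, chr7:142520564-142523006, minus strand, 3 exons) had few reads. Its counts were between 9 and 106 per sample, which is 0.229 to 3.22 CPM, and both its lowest and its highest sample were HP1γ WT. Tox2 (ENSMUSG00000074607, chr2:163045021-163166191, plus strand, 9 exons) had group means between 68.1 and 84.1 CPM and a wide spread in 3 of the 4 groups. It was at 73.9, 70.9, 57.0 and 70.4 CPM in HP1α KO and at 67.2, 104, 102 and 55.6 CPM in HP1α WT. HP1γ KO samples were at 52.9, 133, 77.4 and 72.7 CPM and HP1γ WT samples at 93.7, 49.3, 59.5 and 85.5 CPM. The lowest and the highest Tox2 value of all 16 samples were both in the HP1γ line, in WT replicate 2 and in KO replicate 2.

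Of the receptors, Cxcr5 (ENSMUSG00000047880, chr9:44423083-44473174, minus strand, 2 exons) had its highest value in the same HP1γ KO replicate 2. Its levels were 51.0, 53.4, 55.3 and 63.9 CPM in HP1α KO and 48.8, 68.1, 58.3 and 46.8 CPM in HP1α WT. They were 62.9, 101, 61.6 and 64.7 CPM in HP1γ KO and 77.5, 43.5, 57.7 and 70.3 CPM in HP1γ WT. All groups overlapped with each other except that 1 HP1γ KO sample stood above all others. Icos (ENSMUSG00000026009, chr1:61017086-61039479, plus strand, 5 exons) had the most counts of the 7 genes and was higher in most samples of the HP1γ line. It was at 298, 305, 411 and 410 CPM in HP1α KO and at 317, 347, 381 and 402 CPM in HP1α WT. HP1γ KO samples had 510, 535, 468 and 421 CPM and HP1γ WT samples 564, 601, 409 and 447 CPM. Every WT sample of the HP1α line was below every WT sample of the HP1γ line, the nearest values being 402 and 409 CPM, and the KO groups did not overlap either, although HP1α KO replicates 3 and 4 were just above HP1γ WT replicate 3.

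The SLAM receptor and its adaptor lay the other way round between the lines. Slamf6 (ENSMUSG00000015314, chr1:171745057-171780737, plus strand, 9 exons) was at 237, 237, 200 and 248 CPM in HP1α KO and at 232, 296, 238 and 211 CPM in HP1α WT. It was at 148, 152, 190 and 191 CPM in HP1γ KO and at 156, 154, 207 and 246 CPM in HP1γ WT. The KO groups did not overlap, and the WT groups overlapped through HP1γ WT replicate 4. Sh2d1a (ENSMUSG00000005696, chrX:41591330-41618207, plus strand, 4 exons) was at 42.9, 44.5, 41.3 and 52.5 CPM in HP1α KO and at 43.8, 61.0, 52.1 and 39.6 CPM in HP1α WT. The values were 27.7, 43.1, 36.9 and 36.1 CPM in HP1γ KO and 39.2, 38.0, 35.5 and 42.4 CPM in HP1γ WT. All 4 groups overlapped, with the HP1γ KO replicate 1 the lowest of all.

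**Figure D1:**
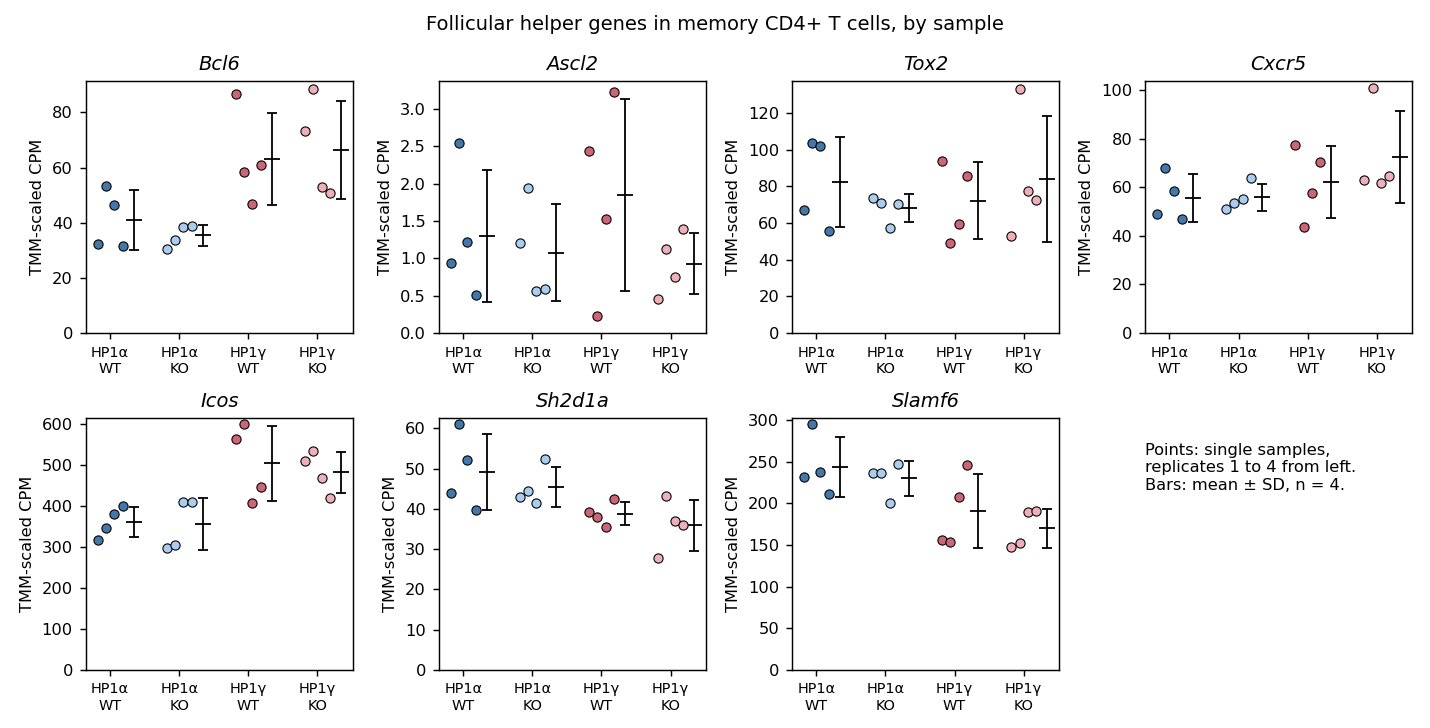
Level of each of the 7 genes in single samples (y axis, TMM-scaled CPM, from 0) by group (x axis), with the mean ± SD of 4 samples beside the points. KO and WT overlapped for every gene in either line, while Icos was at 298 to 411 CPM in the HP1α line and at 409 to 601 CPM in the HP1γ line.

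Levels of different genes were compared as TPM, which corrects for transcript length. Over the 16 samples the medians were 222 TPM for Icos, 164 for Slamf6, 85.6 for Sh2d1a, 62.0 for Tox2, 54.5 for Cxcr5, 23.2 for Bcl6 and 1.24 for Ascl2. Bcl6 was the 6th and Ascl2 the 7th in every sample. Sh2d1a was 3rd or 4th and Cxcr5 4th or 5th, with Sh2d1a above Cxcr5 in every sample. Tox2 took places from 3 to 5, so that only its place among these 3 varied between samples. Icos and Slamf6 exchanged the first place: their TPM ratio was 0.823 to 1.30 in HP1α KO and 0.837 to 1.21 in HP1α WT, against 1.54 to 2.53 in HP1γ KO and 1.19 to 2.41 in HP1γ WT. Icos was thus above Slamf6 in all 8 samples of the HP1γ line and on either side of it in the HP1α line. Some reads may be shared with neighbours on the annotation: Cxcr5 overlaps Bcl9l and Sh2d1a overlaps Tenm1, both on the opposite strand, Slamf6 overlaps a predicted gene on the opposite strand, and Bcl6, Cxcr5 and Icos each overlap a predicted gene on their own strand. The library kit keeps the strand, but the strand setting of the counting was not given in the sources used here. Sh2d1a was the only member whose longest transcript shared at least 150 nt at 98% identity or more with a transcript of another gene, which was Tenm1.

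None of the 7 genes was shown to change with loss of HP1α. 0 of 7 passed an adjusted p of 0.05 in edgeR's quasi-likelihood test, as did 0% of the 14881 genes tested, of which 635 had an unadjusted p under 0.05. Of the 7, 0 had an unadjusted p under 0.05, and DESeq2 called 0 of 7 (5 genes in all). Bcl6 was at 35.4 ± 3.904 CPM in KO and 41.0 ± 10.8 CPM in WT (SD, n = 4), and the log2 fold change was -0.21 with a standard error of 0.17 (adjusted p = 0.946). The 95% interval of its fold was 0.669 to 1.11. For Tox2 the log2 fold change was -0.27 and the interval of the fold 0.622 to 1.10. Cxcr5 (0.01, 0.837 to 1.21), Icos (-0.02, 0.819 to 1.18), Slamf6 (-0.08, 0.804 to 1.11) and Sh2d1a (-0.12, 0.754 to 1.13) had the values nearest to 0 and the narrowest intervals. The interval of Ascl2, 0.362 to 1.84, was wide at its low counts. In bulk samples fewer cells of a type and less RNA per cell cannot be told apart, and this holds for every comparison. The 14 B cell markers tested all had a positive log2 fold change (median 0.38), none of them called, and their summed level was 572 CPM in KO against 458 CPM in WT (two-sided exact permutation p = 0.2). The CD4 T cell markers summed to 5618 CPM in KO and 5285 CPM in WT without overlap (exact permutation p = 0.0286, the smallest that 4 against 4 samples allow), and their part was not tested. The part of B cells in the levels of Cxcr5, Bcl6 and Slamf6 was not tested beyond a fit with the B cell level as a covariate, in which none of the 7 was called either.

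None of the 7 genes was shown to change with loss of HP1γ either. 0 of 7 were called, against 0.327% of 14975 genes, with 0 of 7 at an unadjusted p under 0.05 and 0 by DESeq2. Cxcr5 was at 72.5 ± 18.9 CPM in KO and 62.2 ± 14.9 CPM in WT, and its log2 fold change was 0.23 (SE 0.20, adjusted p = 0.677), and the interval of its fold was 0.863 to 1.60. Tox2 had a log2 fold change of 0.23 (0.769 to 1.80) and Bcl6 one of 0.08 (0.764 to 1.46). Without HP1γ KO replicate 2, which carried the highest values of these 3 genes, the log2 fold changes were 0.03, -0.08 and -0.09. That sample also had the highest summed level of regulatory T cell markers, 972 CPM, the highest Foxp3, 164 CPM, and the highest sum of erythroid and platelet markers, 1108 CPM. Its B cell markers summed to 435 CPM, within the range of the other samples, with Pax5 at 3.71 CPM. The part of these cells in its values was not tested. Icos (-0.05, 0.795 to 1.17), Sh2d1a (-0.10, 0.776 to 1.12) and Slamf6 (-0.16, 0.704 to 1.14) had intervals on either side of no change. Ascl2 had the largest difference, 0.929 ± 0.409 CPM in KO and 1.85 ± 1.29 CPM in WT. Its log2 fold change was -0.96, with a standard error of 0.62 and a fold interval of 0.198 to 1.34 (adjusted p = 0.568).

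The effects of the 2 knockouts on the 7 genes were not shown to differ. The interaction term called 0 of 7 genes, against 0.0507% of the 15776 genes tested, again with 0 of 7 at an unadjusted p under 0.05 and 0 by DESeq2. The largest differences of the log2 fold changes, HP1α minus HP1γ, were 0.68 for Ascl2 (SE 0.89), -0.50 for Tox2 (SE 0.37) and -0.28 for Bcl6 (SE 0.30).

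**Figure D2:**
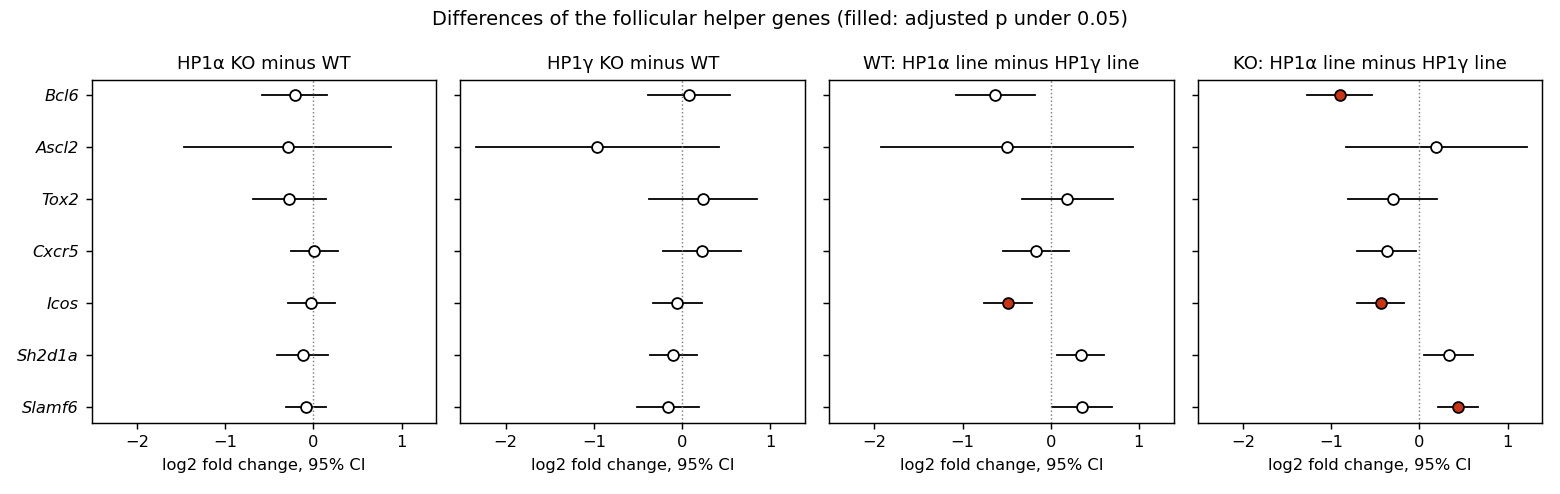
Log2 fold change (x axis) with its 95% confidence interval for the 7 genes (rows), from edgeR, in 4 comparisons. Filled points had an adjusted p under 0.05: Icos at -0.48 between the WT groups, and Bcl6 at -0.90, Icos at -0.44 and Slamf6 at 0.44 between the KO groups.

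Between the WT groups of the lines, which differ in the alleles they carry and in their litters, Icos was lower in the HP1α line. Its level was 361 ± 37.5 CPM against 505 ± 91.9 CPM, a log2 fold change of -0.48 (SE 0.13, edgeR, adjusted p = 0.0328). It was the only 1 of 7 called, and 12.8% of the 14804 genes tested were called, so that this count is close to the background. The call was lost without HP1α WT replicate 1 (adjusted p = 0.104), HP1α WT replicate 2 (0.0764), HP1γ WT replicate 1 (0.0974) or HP1γ WT replicate 2 (0.0952), with log2 fold changes from -0.46 to -0.39. Bcl6 was at 41.0 ± 10.8 against 63.3 ± 16.7 CPM (log2 fold change -0.63, adjusted p = 0.067), Slamf6 at 244 ± 36.1 against 191 ± 44.7 CPM (0.35, adjusted p = 0.154) and Sh2d1a at 49.1 ± 9.44 against 38.8 ± 2.86 CPM (0.34, adjusted p = 0.0898). These 3 did not pass the test, although their unadjusted p was under 0.05. Bcl6 was called by DESeq2 (adjusted p = 0.0135), with no filter on low counts (0.0429) and without HP1γ WT replicate 3 (0.0427), and Slamf6 was called without HP1γ WT replicate 4 (0.040). Tox2 (0.19), Cxcr5 (-0.17) and Ascl2 (-0.49) had intervals on either side of 0. The summed B cell markers were higher in the HP1α line WT, 458 against 364 CPM (exact permutation p = 0.0286). Ighm, which makes up most of the sum, was at 387 against 297 CPM. Of the 14 B cell markers tested, 10 were higher and 4 lower, among the latter Fcrla (-0.92) and Blnk (-0.88), and none was called. The sums of the WT groups did not overlap, at 405 to 580 against 325 to 395 CPM. A fit with this level as a covariate therefore cannot separate it from the line, and its part was not tested. In that fit Icos had a log2 fold change of -0.68 (edgeR, adjusted p = 0.0179).

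Further comparisons of the lines were chosen after seeing the data. Between the KO groups, HP1α minus HP1γ, Bcl6 had a log2 fold change of -0.90 (adjusted p = 0.0040), Icos one of -0.44 (adjusted p = 0.020) and Slamf6 one of 0.44 (adjusted p = 0.0096). These are 3 of 7 genes where 32.8% of 15020 genes were called. With WT and KO averaged within each line, Bcl6 (-0.77), Icos (-0.46), Slamf6 (0.40) and Sh2d1a (0.34) were called, 4 of 7 where 41.8% of 15776 genes were called. With only 7 genes, these counts are close to those the background gives, and Tox2, Cxcr5 and Ascl2 were called in neither. The 4 genes kept the direction they had between the WT groups.

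Other genes of the pathway were read from 2 lists, of which Lef1, Tox, Ccr7 and Il2ra also stand on another list used here. Of 26 genes associated with Tfh cells, none was called in either knockout, with a median log2 fold change of -0.07 in HP1α KO and -0.03 in HP1γ KO (all genes tested, 0.00 in both). In HP1α KO 1 of the 26 had an unadjusted p under 0.05, Lef1 (0.17). Il21, the Tfh cytokine, had a log2 fold change of -0.88 and was not called (edgeR, adjusted p = 0.946, fold interval 0.234 to 1.26). It was at 6.55 ± 2.82 CPM in KO and 11.9 ± 10.4 CPM in WT, where replicate 2 was at 26.8 CPM and the others at 3.22 to 11.2 CPM. In HP1γ KO 7 of the 26 had an unadjusted p under 0.05, as did 1784 of all 14975 genes tested, among them Irf4 (0.38, adjusted p = 0.218), Il4 (-0.85, adjusted p = 0.251) and Ly9 (-0.22, adjusted p = 0.313). Il4 is a cytokine of germinal centre Tfh cells, and it was at 2.01 ± 0.160 CPM in KO and 3.62 ± 1.13 CPM in WT. The 14 genes that oppose Tfh differentiation or are low in Tfh cells gave no call in either knockout (medians 0.08 and 0.03). The smallest p among them were those of Gpr183 (0.20), S1pr1 (0.19) and Klf2 (0.29) in HP1α KO, and of Id2 (-0.33), Stat5a (0.48) and Selplg (-0.11) in HP1γ KO. Of 6 paralogs of the members, 3 passed the filter on low counts and none was called in either knockout.

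Between the WT groups, 5 of the 26 Tfh-associated genes were called, where 12.8% of all genes tested were called. Irf4 (log2 fold change -1.06), the costimulatory receptor Cd28 (-0.60), Tnfsf8 (-0.93) and Stat3 (-0.33), which transmits IL-6 and IL-21 signals, were lower in the HP1α line, and Cd40lg (0.44), the ligand by which T cells help B cells, was higher. The summed level of the list was 5553 CPM in the HP1α line and 6270 CPM in the HP1γ line (exact permutation p = 0.0286), and that of the opposing list was 2898 against 3461 CPM (exact permutation p = 0.0571). Such sums weigh abundant genes most. Of the 26 genes, 11 were higher and 15 lower in the HP1α line, with a median log2 fold change of -0.03 (all genes tested, 0.015). On the opposing list 6 were higher and 8 lower (median -0.14). Of the 14 opposing genes, S1pr1 (-0.74), Prdm1 (-0.48), which encodes the Bcl6 antagonist Blimp-1, and Stat5a (-0.54) were lower in the HP1α line. Of the paralogs, Tox4 (-0.52) and Cxcr4 (-1.07) were lower. The genes lower in the HP1α line were thus 4 of 26 on the Tfh-associated list and 3 of 14 on the opposing list, where 1222 of all 14804 genes tested were called lower. With so few genes, nothing particular to either list is read from these counts. Among the marker lists, Xbp1 (-0.52), Sdc1 (-1.69) and Eomes (-0.68) were lower and Actn1 (0.55) higher, while no marker of the 9 lists was called in either knockout.

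The 7 genes were then compared by whether they rose and fell together from sample to sample, as the correlation of log2 CPM over the 16 samples for 21 pairs (permutation test with 100000 resamples, adjusted over the 21 pairs). The share of correlated pairs among all genes tested was not computed. 7 of the 21 pairs had an adjusted p under 0.05. The closest were Bcl6 with Icos (Pearson's r = 0.816, adjusted p = 0.0025, Spearman's rho = 0.818, adjusted p = 0.0044) and Icos with Slamf6 (r = -0.811, adjusted p = 0.0026, rho = -0.724, adjusted p = 0.0118). They were also the only pairs that passed (r = 0.747 and -0.793) when 2 extreme samples were left out. These were the samples farthest from the median of the first-named gene of the pair, so that they could differ between pairs. Since Bcl6, Icos and Slamf6 differ between the lines, the values within a line were computed as well. Bcl6 with Icos gave r = 0.332 in the HP1α line and 0.687 in the HP1γ line, and Icos with Slamf6 gave -0.311 and -0.782 (8 samples each), and none of these passed the adjustment. With the group means removed, Icos with Slamf6 had r = -0.654 and passed (adjusted p = 0.021), and Bcl6 with Icos had r = 0.540 and did not (adjusted p = 0.0617). In the HP1γ line, replicates 1 and 2 of both KO and WT had higher Icos and lower Slamf6 than replicates 3 and 4. In the HP1α line, Icos was lower in replicates 1 and 2 of both KO and WT. Removing the group means keeps such a split, and the permutation treats the 16 samples as exchangeable.

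Other pairs of members, picked here by the size of these same correlations, also rose and fell together. Tox2 and Cxcr5 had r = 0.773 (adjusted p = 0.0029) and rho = 0.700 (adjusted p = 0.0129) over 16 samples, r = 0.668 in the HP1α line and r = 0.919 in the HP1γ line (exact permutation over 8 samples, adjusted p = 0.024). Without the 2 extreme samples r was 0.543 and did not pass (adjusted p = 0.135). When each sample was taken as its deviation from its group mean, Tox2 with Cxcr5 had r = 0.869, Tox2 with Sh2d1a 0.817, Bcl6 with Cxcr5 0.751, Ascl2 with Tox2 0.715 and Cxcr5 with Sh2d1a 0.688. 10 of 21 pairs passed in that form, and 17 of 21 were positive, although these p-values do not account for the 4 means removed. The share among pairs of all genes tested was not computed, so nothing particular to the members is read from these counts. That form was also not computed without HP1γ KO replicate 2, the highest sample for Tox2, Cxcr5 and Bcl6. As deviations from the group means, Icos had r = -0.06 with Tox2 and 0.12 with Cxcr5, and it ran against Ascl2 (-0.593) and Slamf6 (-0.654). Bcl6 with Slamf6 had opposite signs in the lines, r = 0.620 in the HP1α line and -0.625 in the HP1γ line, neither past the adjustment and their difference not tested, beside a pooled r of -0.638 (adjusted p = 0.0263) that did not pass by rank (rho = -0.485, adjusted p = 0.122). Sh2d1a with Slamf6 had a pooled r of 0.742 (adjusted p = 0.0037, rho = 0.747, adjusted p = 0.0118), which was 0.889 in the HP1α line and 0.308 in the HP1γ line. The remaining pooled pairs were Bcl6 with Cxcr5 (r = 0.736, rho = 0.721) and Ascl2 with Tox2 (r = 0.646, rho = 0.697), and like Sh2d1a with Slamf6 and Bcl6 with Slamf6 they did not pass without the 2 extreme samples.

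**Figure D3:**
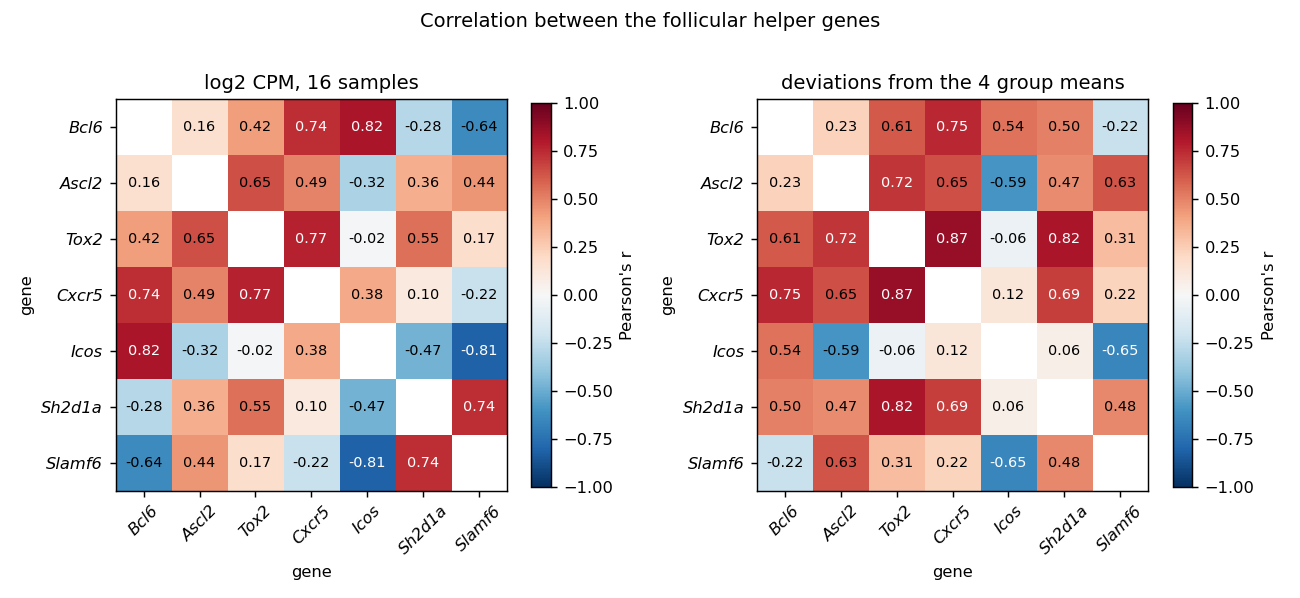
Pearson's r for each pair of the 7 genes, over log2 CPM of the 16 samples (left) and over the deviations of each sample from its group mean (right), on a colour scale from -1 to 1. Bcl6 with Icos is the highest on the left (0.82), and Tox2 with Cxcr5 is the highest on the right (0.87).

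**Figure D4:**
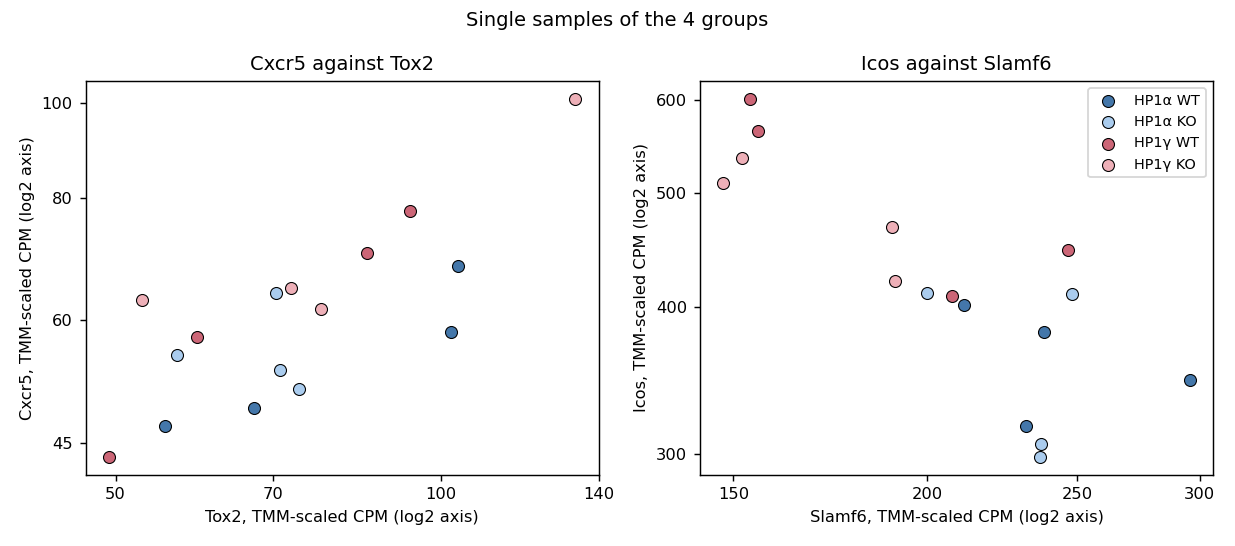
Cxcr5 against Tox2 (left) and Icos against Slamf6 (right), in TMM-scaled CPM on log2 axes, 1 point per sample and coloured by group. Cxcr5 rises with Tox2 up to HP1γ KO replicate 2 at 133 and 101 CPM, and the HP1γ line samples with the lowest Slamf6 (148 to 156 CPM) have the highest Icos (510 to 601 CPM).

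The genes whose pattern was most like each member over the 16 samples were found among all 15776 genes by Pearson's r of log2 CPM, as a description. For Bcl6 they were Hif1a (0.983), Itgav (0.972) and Stx11 (0.966), and for Icos they were Samsn1 (0.971), Tnfrsf1b (0.963) and Crem (0.960). For Slamf6 they were Apobec3 (0.958), Ap3m1 (0.945) and Iqcc (0.942). These 3 members differ between the lines, as many genes do. Tox2 was most like Tmc3 (0.877), Il21 (0.846) and Ces2c (0.844), of which Il21 is on the Tfh-associated list. Cxcr5 was most like E130308A19Rik (0.918), Ptpn13 (0.896) and Nek8 (0.882), Sh2d1a like Apool (0.925) and Fbxl19 (0.865), and Ascl2 like Cdh23 (0.948), Vamp5 (0.881) and Sostdc1 (0.854). Il21 was at 3.22 to 26.8 CPM and was highest in HP1α WT replicate 2, which also had the highest Tox2 of its line (104 CPM) and the highest Ascl2 of its line (2.54 CPM).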

How the data were processed

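Groups and replicates come from the submitters' titles. A treatment label describing transferred cells does not match the study's account of the memory cells and was not used. The authors used the nf-core pipeline (Trim Galore, STAR on GRCm39, Salmon) and deposited estimated counts and TPM (11.6% of the estimated counts are not whole). Counts were rounded and tested with edgeR 4.0.16 in R 4.3.3 (TMM, filterByExpr with a minimum count of 10, glmQLFit, glmQLFTest, Benjamini-Hochberg over all genes tested); a call is an adjusted p under 0.05. Each comparison of 2 groups used its 8 samples, and the interaction all 16. CPM are TMM-scaled over 16 samples, and log2 CPM have a prior count of 2. Correlations used scipy 1.17.1, and shared transcript sequence blastn 2.17.0. Alternatives were DESeq2 1.42.0, RLE size factors, no filter, a replicate block, limma 3.58.1 on log2(TPM + 1) and log2(TPM + 0.1), a B cell covariate, 1 fit of all samples and the omission of each sample. The test was checked on simulated data. Members and lists were chosen with earlier results of these data known. Named genes are the 7 members, Cbx5 and Cbx3, called genes of each list (otherwise up to 3 with the smallest p) and the 3 genes most like each member. A few items are not reported here. Il21 in HP1α KO and the single markers were named after their values were seen. The 24 pairs of replicates all differed by more than sampling noise (lowest chi-square per gene 10.4). Labels do not say that replicates were separate animals, so p-values measure the spread between these samples.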

Additional observations from a re-analysis of the deposited data

Results flagged for a closer look

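Cxcr5 in HP1γ KO replicate 2 was at 100.8 CPM, far above the other 3 samples of its group at 61.6 to 64.7 CPM. Its gap to the nearest sample was 0.921 of the range of the group, above the critical value of Dixon's test for 4 samples. It was the only 1 of 28 groups of member values that stood out in this way, and chance flags about 1 in 20 groups. Tox2 (133 CPM) and Bcl6 (88.5 CPM) were also highest in this sample.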

How the results depend on the processing

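The count of members called was 0 in HP1α KO against WT, in HP1γ KO against WT and in the interaction under every alternative tried. Between the WT groups it was 1, and it was 2 with DESeq2, 2 with no filter on low counts, 0 with the replicate block, 0 to 2 when single samples were left out, 3 between the KO groups and 4 with the lines averaged. Whether the numbers of the replicates pair the samples is not known. Same-numbered samples deviated together with weak positive correlations within the lines, 0.094 to 0.228 in the HP1α line and 0.00286 to 0.153 in the HP1γ line. Between the WT groups these correlations were -0.204 to -0.0654. They are taken over all genes tested, and single members can differ. Icos was higher in replicates 1 and 2 than in 3 and 4 in KO and WT of the HP1γ line, and lower in both groups of the HP1α line. The main tests treat the samples as unpaired, and with the block the Icos difference was -0.47 (edgeR, adjusted p = 0.102). Over all genes the calls ranged with the settings from 0 to 5 in HP1α KO (0 as reported, 5 with DESeq2), from 28 to 256 in HP1γ KO (49 as reported, 256 with DESeq2), from 4 to 76 for the interaction (8 as reported, 76 with DESeq2) and from 573 to 2823 between the WT groups (1896 as reported, 577 with the block). Of the 21 pairs of members, 7 passed, 6 with TPM, 10 with group means removed, 6 in the HP1α line alone, 1 in the HP1γ line alone and 2 without the extreme samples, and Bcl6 with Slamf6 was at 0.620 in the HP1α line alone. The causes were not tested. Differences near 0 changed sign. With the B cell covariate they were 0.0716 for Ascl2 and -0.0165 for Cxcr5 in HP1α KO, -0.0804 for Bcl6 in HP1γ KO, -0.0184 for Tox2 between the WT groups and -0.0281 for Icos in the interaction. With limma Icos was at 0.0230 in HP1γ KO and -0.0254 in the interaction (0.0231 and -0.0256 with the pseudocount of 0.1), and Sh2d1a in the interaction was at 0.0042 with no filter and 0.0152 with the block. Between the KO groups Ascl2 was at 0.19 and Tox2 at -0.30, and with the lines averaged Tox2 was at -0.0566. Leaving out single samples gave, in HP1α KO, Ascl2 -0.734 to 0.279, Cxcr5 -0.0640 to 0.125, Icos -0.0977 to 0.0552, Sh2d1a -0.209 to 0.0047 and Slamf6 -0.148 to 0.0214. In HP1γ KO it gave Bcl6 -0.0945 to 0.262, Tox2 -0.0801 to 0.401, Icos -0.141 to 0.0393 and Sh2d1a -0.20 to 0.0062, and in the interaction Icos -0.0492 to 0.131, Sh2d1a -0.11 to 0.11 and Slamf6 -0.0642 to 0.188. No scaling moved the median of all genes by more than 0.0661 on the log2 scale. Depth limits Ascl2 alone among the members, at 9 to 106 counts per sample.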
